A study of Mus musculus with 2 samples.

Results

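The genes described here build the contractile machinery of striated muscle and couple its excitation to contraction. They are 39 named genes, chosen by name for their role, of 22072 gene symbols in the tables. All 39 had at least 1 row, and the FPKM of a gene's transcript rows were summed. FPKM scales a transcript's fragments by its length and by the library's mapped fragments, so levels can be compared between genes. Tongues were dissected from mouse embryos of a mixed background at embryonic day 12. The control library was labelled Osr1f/+, that is, 1 conditional allele of the transcription factor gene Osr1 beside a wild-type allele. The mutant library was labelled Osr1f/-; Wnt1cre, that is, a conditional and a null allele plus a Cre driven by Wnt1 sequences, which acts in the neural crest lineage and not in skeletal muscle cells. Per the series' design text, 3 pairs of control and mutant tongues were pooled for RNA, and there was 1 library of each genotype. Every ratio is therefore mutant over control of 2 libraries, with no replicate check and no test between genotypes. The intervals given with ratios are 95% exact conditional (Clopper-Pearson) intervals from estimated reads and cover counting error only.

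A sarcomere is the repeating unit of a muscle fibre, in which thick filaments of myosin slide along thin filaments of actin. Troponin and tropomyosin on the thin filament open the actin sites when calcium is released through ryanodine receptors, which the voltage-sensing calcium channel of the membrane triggers. Many of these proteins have embryonic, slow, fast and cardiac isoforms from separate genes, and early skeletal muscle is known to use embryonic and cardiac isoforms before the adult set appears. The tongue's skeletal muscle comes from somites, whereas its connective tissue comes from neural crest.

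The libraries held about 18900000 control and 23100000 mutant mapped reads, as estimated from the deposited coverage. Osr1 had 56.8 FPKM in control and 18.4 FPKM in mutant tongues, for a ratio of 0.325 (0.30 to 0.352), which goes with the labels. A gene counted as measured if it had at least 1 FPKM in either library and the status OK in all of its rows, which left 12383 genes. Of the 39 members, 34 were measured. Myl2, Myl3, Ryr3 and Ckm stayed under 1 FPKM in both libraries, and Tnnt2 had over 26 FPKM in both but also a row of status LOWDATA, so its values are given and it enters no count. Tcap passed through the mutant library alone, with 0.966 FPKM in the control, so with this filter it could only count as higher. In bulk tissue, fewer cells of a type and less RNA per cell cannot be told apart.

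Across the whole group the libraries were close, with a small shift toward the mutant. Summed over the members, the control library had 1172 FPKM and the mutant library 1230, a ratio of 1.05. Of the 34 measured members, 23 (67.6%) had a higher value in the mutant library and 11 a lower one, while 51.2% of all measured genes were higher and 48.8% lower. The members' median log2 ratio of FPKM plus 1 was 0.09, against 0.0035 over all measured genes. For 8 members (23.5%) the counting interval of the ratio lay above 1, namely Myh3, Myh7, Myl4, Mylpf, Actc1, Acta1, Tnnc1 and Cacna1s, with ratios from 1.06 to 1.26. Over all measured genes that share was 10.8%. The interval lay below 1 for Myh8 alone, against 10.3% of all measured genes. For the other 25 members it included 1. Intervals are narrower for abundant genes. Where either library had at least 10 FPKM, the interval lay above 1 for 6 of 19 members and for 11.4% of all such genes, and below 1 for 1 member and for 12.9% of all such genes. A ratio of at least 1.2 was reached by 3 members (8.82%), Cacna1s, Cacng1 and Tcap, and by 7.59% of all measured genes, so that share was near the background. Of the measured members 0 were lower by that factor, against 5.67% of all measured genes. For scale, the non-muscle genes Actb and Gapdh had ratios of 1.08 (1.06 to 1.09) and 0.959 (0.939 to 0.979). Hprt had 0.837 (0.738 to 0.949) and Tbp 0.958 (0.856 to 1.07), so differences as large as most of the members' also occurred among housekeeping genes.

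**Figure D1:**
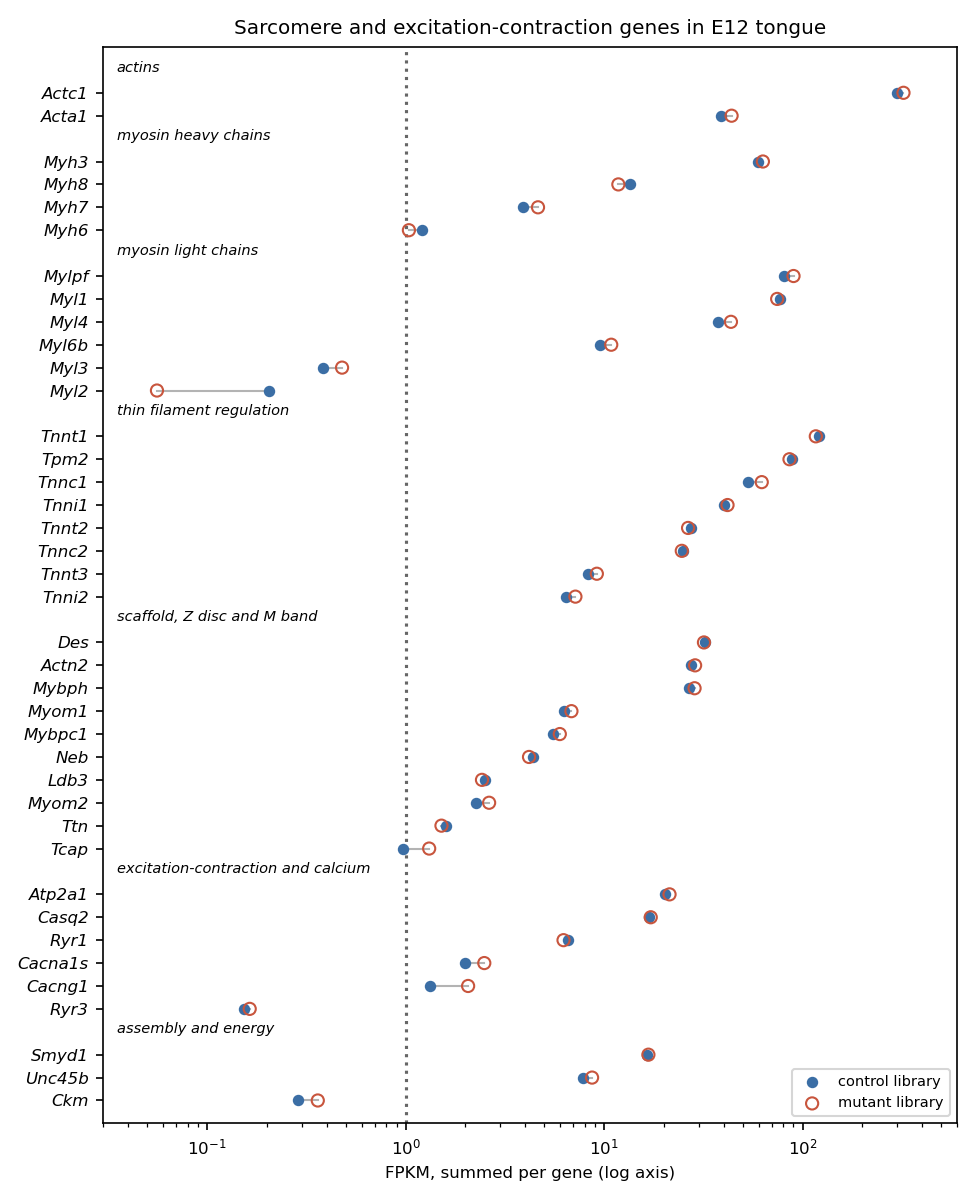
FPKM per gene in the control (filled blue) and mutant (open red) library on a log axis, grouped by role, with a dotted line at 1 FPKM. The pairs of points nearly coincide from Actc1 at 298 and 322 FPKM down to Ryr3 at 0.154 and 0.164 FPKM. The wide pair of Myl2 rests on about 2 and 1 reads.

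Actins form the thin filament, and Actc1 was the most abundant member. Actc1, cardiac actin, which is also the main striated actin of embryonic skeletal muscle, had 298 FPKM in control and 322 FPKM in mutant tongues. The ratio was 1.08 (1.05 to 1.12) from about 7810 and 10356 reads. Acta1, the skeletal actin that takes over in adult muscle, had 39.0 and 43.9 FPKM, a ratio of 1.13 (1.04 to 1.22). Both actins were thus higher in the mutant library by about the same factor, and the make-up of the pair was nearly the same in both. Actc1 held 88.4% (87.8 to 89.1, a binomial interval described with the processing) of the actin pair's FPKM in control and 88.0% (87.4 to 88.6) in mutant tongues. Of the windows of 47 bases in the Actc1 transcript, 0 occurred in a transcript of another gene, and 2.43% of those of Acta1 did, so exact sharing of reads was rare.

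The 250 bases before the start of each actin gene are shown because both actins lay on the same side and each holds a CArG box, the binding motif of serum response factor. They are RefSeq sequences of build GRCm38.p6, 5′ to 3′ on the gene's strand, and capitals mark the CArG box. The Actc1 sequence is at chr2:114052876-114053125 and that of Acta1 at chr8:123894776-123895025, both on the minus strand.
Actc1: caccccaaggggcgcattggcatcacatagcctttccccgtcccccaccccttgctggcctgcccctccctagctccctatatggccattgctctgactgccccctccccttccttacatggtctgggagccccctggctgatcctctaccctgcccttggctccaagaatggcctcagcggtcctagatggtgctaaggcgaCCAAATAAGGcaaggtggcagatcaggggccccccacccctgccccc
Acta1: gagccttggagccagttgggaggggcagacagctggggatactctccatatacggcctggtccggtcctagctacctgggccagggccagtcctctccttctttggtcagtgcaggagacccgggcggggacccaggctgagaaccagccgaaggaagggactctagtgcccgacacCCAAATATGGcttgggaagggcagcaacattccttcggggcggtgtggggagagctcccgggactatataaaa
Promoters of 32 of the 39 members were found in the table. A CArG box stood in 5 of the 32 (15.6%), those of Acta1, Actc1, Ldb3, Myl3 and Myom1, and in 1.62% of all 27025 genes with a promoter there. The E-box CANNTG, read by the myogenic bHLH factors among others, stood in 27 of the 32 (84.4%) and in 69.3% of all genes. The letters TATAAA on either strand stood in 8 of the 32 (25%) and in 14.3% of all genes, and the MEF2 box in 3 of the 32 (9.38%) and in 3.42%. A gene with several promoters counted once, and a match describes letters and no binding. The box starts 47 bases before the start of Actc1 and 73 bases before that of Acta1. Of the other members with a CArG box, Ldb3 and Myom1 had intervals that included 1, and Myl3 stayed under 1 FPKM.

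Myosin heavy chains are the motors of the thick filament. The embryonic chain Myh3 led them, with 59.8 FPKM in control and 63.1 FPKM in mutant tongues, for a ratio of 1.06 (1.02 to 1.09) from about 6754 and 8735 reads. Myh8, the perinatal chain, had 13.5 and 11.8 FPKM, with a ratio of 0.877 (0.818 to 0.940), and was the lower of the pair in the mutant library. Myh7, the slow and cardiac beta chain, had 3.90 and 4.64 FPKM, a ratio of 1.19 (1.05 to 1.35). Myh6, the cardiac alpha chain, had 1.21 and 1.04 FPKM, a ratio of 0.856 (0.673 to 1.09), which counting error covers. These chains therefore lay on both sides of 1, with Myh3 and Myh7 higher and Myh8 lower past counting error. Myh3 made up 73.9% (73.0 to 74.8) of all heavy chain FPKM in control and 75.7% (74.9 to 76.5) in mutant tongues. The share of Myh8 was 16.6% (15.9 to 17.4) and 14.2% (13.5 to 14.8), and that of Myh7 was 4.82% (4.39 to 5.28) and 5.57% (5.16 to 6.01). Near-identical stretches limit these figures, since 23.9% of the 47-base windows of Myh6 and 29.7% of those of Myh7 occurred in another gene's transcripts, mostly those of each other. For Myh8 the share was 22.8%, first with Myh2, and for Myh3 it was 5.43%.

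Myh3 and Myh8 stand in 1 cluster of myosin genes on mm9 chromosome 11, at 66891802 to 66915793 and 67090626 to 67122135, with 174.8 kb between them. In between lie the adult fast genes Myh2, Myh1 and Myh4, and Myh13 follows. In the control Myh2, Myh1 and Myh4 had 0.278, 0.792 and 0.372 FPKM, and in the mutant library they had 0.232, 0.768 and 0.378 FPKM. Myh13 had 0.133 and 0.129 FPKM. The adult fast chains were thus listed at under 1 FPKM in both libraries, between an abundant embryonic and a moderate perinatal neighbour. Windows of Myh8 also occur in transcripts of Myh2 (12.7%), Myh1 and Myh4. Windows of these adult genes themselves were not compared, so it is uncertain whether their few reads are their own. Myh6 and Myh7 form a second pair on chromosome 14, with 4.08 kb between them.

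The 250 bases before Myh3 and Myh8 are shown because these neighbours lay on opposite sides of 1. They are at chr11:67078050-67078299 and chr11:67276874-67277123 of GRCm38.p6, on the plus strand, and capitals mark the E-box CANNTG.
Myh3: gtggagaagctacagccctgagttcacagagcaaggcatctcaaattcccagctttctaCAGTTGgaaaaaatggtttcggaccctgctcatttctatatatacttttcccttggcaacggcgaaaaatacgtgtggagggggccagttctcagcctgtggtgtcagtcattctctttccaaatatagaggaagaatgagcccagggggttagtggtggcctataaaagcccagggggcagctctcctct
Myh8: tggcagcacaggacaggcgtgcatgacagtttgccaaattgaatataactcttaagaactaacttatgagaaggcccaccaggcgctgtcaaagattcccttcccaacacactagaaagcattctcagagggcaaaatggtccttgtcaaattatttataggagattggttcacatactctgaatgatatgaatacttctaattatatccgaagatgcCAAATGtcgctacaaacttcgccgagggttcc
Each window held 1 E-box, starting 191 bases before the gene's start in Myh3 and 32 bases before it in Myh8. Myh8 also held a MEF2 box, and no such letters were found in the Myh3 window. The other members with a MEF2 box, Casq2 and Ttn, had intervals that included 1.

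Myosin light chains bind the neck of the motor, the essential chains stabilising it and the regulatory chains tuning it. Among regulatory chains the fast form Mylpf had 80.9 FPKM in control and 90.0 FPKM in mutant tongues, for a ratio of 1.11 (1.03 to 1.2). The slow and ventricular form Myl2 had 0.204 and 0.0558 FPKM from about 2 and 1 reads, at or under the floor of 3 reads, so no ratio is given. Mylpf held 99.7% and 99.9% of regulatory chain FPKM, which leaves nearly nothing for the slow form. Among essential chains Myl1, the fast form, had 76.9 and 74.5 FPKM, a ratio of 0.968 (0.901 to 1.04). Myl4, the embryonic and atrial form, had 37.7 and 43.6 FPKM, a ratio of 1.16 (1.04 to 1.28). Myl6b, a form of slow muscle and of other tissues, had 9.55 and 10.9 FPKM, with a ratio of 1.14 (0.938 to 1.38). Myl3, the slow and ventricular form, had 0.382 and 0.478 FPKM from about 6 and 10 reads. As sums of its rows, Myl1 made up 61.8% (59.7 to 63.8) in control and 57.6% (55.7 to 59.4) in mutant tongues, and Myl4 30.3% (28.3 to 32.2) and 33.7% (31.9 to 35.4). With the most abundant row of each gene alone, the shares of Myl1 were 52.2% and 49.5%, and its log2 ratio was 0.05 in place of −0.05. Of the Myl1 transcript's windows, 24.2% also occur in its pseudogene Mylf-ps.

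**Figure D2:**
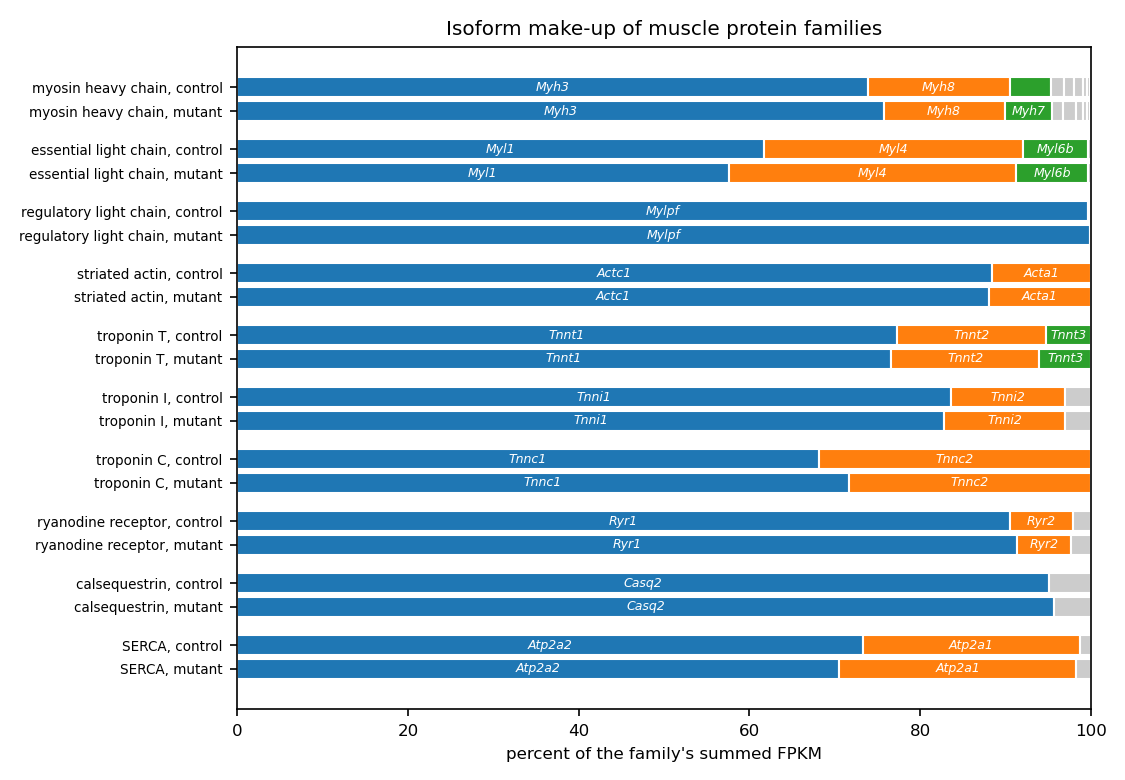
Percent of each protein family's summed FPKM held by each isoform gene, as stacked bars for the control and mutant library. Isoforms under 5% in both libraries are grey. Embryonic Myh3, fast Mylpf, cardiac Actc1 and the slow troponins Tnnt1, Tnni1 and Tnnc1 fill most of their bars in both libraries.

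The troponin complex and tropomyosin switch the thin filament on. Troponin T anchors the complex to tropomyosin, and its slow form Tnnt1 had 121 FPKM in control and 117 FPKM in mutant tongues, for a ratio of 0.965 (0.911 to 1.02). The cardiac form Tnnt2 had 27.3 and 26.5 FPKM, with a ratio of 0.971 (0.869 to 1.09), and the fast form Tnnt3 had 8.31 and 9.19 FPKM, a ratio of 1.11 (0.90 to 1.36). No form of troponin T differed past counting error. The slow form held 77.2% (75.7 to 78.8) of troponin T in control and 76.6% (75.1 to 78.0) in mutant tongues, the cardiac form 17.4% in both, and the fast form 5.31% and 6.04%. With the most abundant row alone, the fast form's shares were 3.28% and 1.64%, so its direction turned. Tnnt3 overlaps another gene model with 1.29 FPKM at most.

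Troponin I holds the filament off at low calcium. Its slow form Tnni1 had 40.3 and 41.9 FPKM, with a ratio of 1.04 (0.947 to 1.14), and its fast form Tnni2 had 6.42 and 7.17 FPKM, a ratio of 1.12 (0.831 to 1.51). The slow share was 83.6% (81.1 to 86.0) and 82.8% (80.6 to 85.0). The cardiac form Tnni3 had 1.48 and 1.52 FPKM. Troponin C binds the calcium. Tnnc1, its slow and cardiac form, had 53.2 FPKM in control and 62.3 FPKM in mutant tongues, for a ratio of 1.17 (1.06 to 1.29), the only troponin whose interval left 1. Tnnc2, the fast form, had 24.9 and 24.6 FPKM, a ratio of 0.990 (0.853 to 1.15). Of the windows in the Tnnc2 transcript 57.0% also occur in transcripts annotated to its neighbour Ube2c, a cell cycle gene, so the Tnnc2 value is less certain. The share of Tnnc1 in troponin C was 68.1% (65.2 to 71.0) and 71.7% (69.2 to 74.0), and these intervals overlap. Tpm2, beta-tropomyosin, had 88.7 and 85.9 FPKM, a ratio of 0.969 (0.926 to 1.01).

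Some of the troponin genes among the members stand in pairs of an I and a T gene. Tnni1 and Tnnt2 lie 25.4 kb apart on mm9 chromosome 1, and Cacna1s, a channel gene described below with the calcium genes, follows 200.6 kb after Tnnt2. Tnni2 and Tnnt3 lie 54.4 kb apart on chromosome 7. The ratios were 1.04 and 0.971 in the first pair, on opposite sides of 1, and 1.12 and 1.11 in the second. All of these lay within counting error of 1.

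Counted by class, the isoforms gave no class that stood clear of the others, and differences between classes were not tested. The developmental class (Myh3, Myh8 and Myl4) had 2 higher and 1 lower, a median log2 ratio of 0.08 and summed levels of 111 and 118 FPKM. The slow class had 6 higher and 1 lower of 7 measured among 9, a median of 0.10 and summed levels of 251 and 260 FPKM. The fast class had 4 higher and 2 lower of 6, a median of 0.10 and summed levels of 218 and 227 FPKM. The cardiac class had only Actc1, which was higher, and Myh6, which was lower, as measured members beside Tnnt2, and summed levels of 326 and 350 FPKM. The 16 measured members in no class had 10 higher and 6 lower and a median of 0.08. Summed levels were thus higher in the mutant library in all 4 isoform classes, with ratios of 1.07, 1.04, 1.04 and 1.07 in the order given. The cardiac sum was mostly Actc1, with 298 and 322 FPKM, and includes Tnnt2, which enters no count. Tnnt2 and Myh6 were lower within counting error, and the median log2 ratio of the measured cardiac members was −0.0020. In both libraries slow genes led the troponins while fast genes led the light chains.

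**Figure D3:**
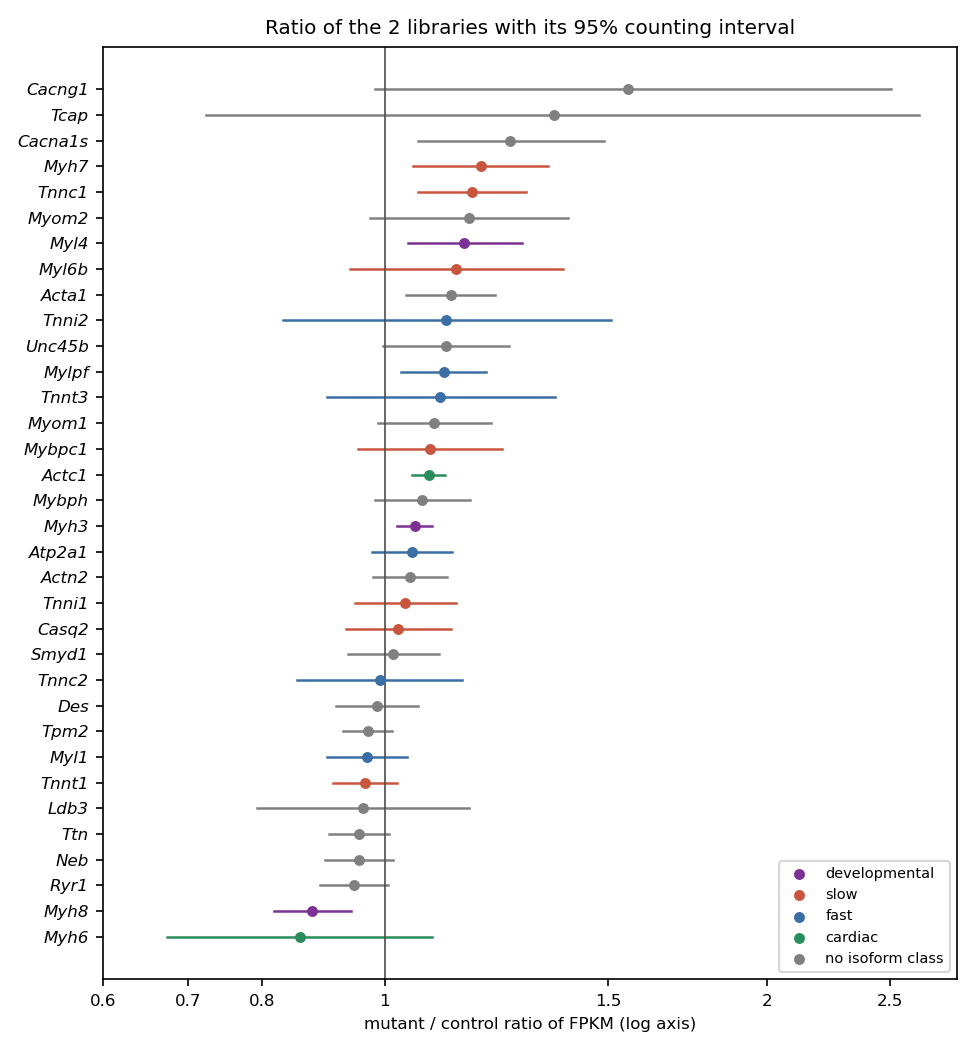
Mutant over control ratio of FPKM on a log axis for the 34 measured members, with 95% counting intervals as bars and colours for the isoform class. The intervals of 8 members lie right of 1 and that of Myh8 lies left of it.

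Of the cardiac isoforms, Actc1 and Tnnt2 were abundant while heart markers were low. All but 2 of 9 heart markers stayed under 1 FPKM in both libraries. Nppb was listed at 0 in both libraries, Myl7 had 0.0742 FPKM in the control and was listed at 0 in the mutant library, and Mybpc3 was listed at 0 and had 0.0181 FPKM. The measured ones were Myh6 and Tnni3, Hcn4 came next with 0.923 and 0.840 FPKM, and the list summed to 4.07 and 3.78 FPKM. Smooth muscle also expresses some of these genes, Des among them. Its markers, Des included, summed to 195 and 190 FPKM, of which Acta2 held 142 and 138 FPKM. Myh11 had 0.924 and 0.368 FPKM, a ratio of 0.398 (0.284 to 0.553). Cnn1 had 0.476 and 0.192 FPKM, a ratio of 0.403 (0.160 to 0.945). Smtn had 12.5 and 11.1 FPKM, a ratio of 0.888 (0.805 to 0.979). Tagln lay the other way, with 4.95 and 6.45 FPKM and a ratio of 1.30 (1.05 to 1.61). Of the 8 smooth muscle markers 5 were measured, with 2 higher and 3 lower. Myh11, Cnn1 and Lmod1 stayed under 1 FPKM and were not counted.

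Scaffold, Z-disc and M-band genes hold the filaments in register, and none of the 10 had an interval that left 1. Of these 10 genes 6 were higher and 4 lower, with a median log2 ratio of 0.08. Des, the intermediate filament protein that links myofibrils, had 32.3 and 31.8 FPKM, a ratio of 0.986 (0.916 to 1.06). Actn2, the Z-disc cross-linker, had 27.5 and 28.7 FPKM, a ratio of 1.05 (0.978 to 1.12). Mybph, a myosin-binding protein, had 26.7 and 28.6 FPKM, a ratio of 1.07 (0.982 to 1.17), though 45.3% of its windows also occur in transcripts of its neighbour Adora1. The giant genes had slightly lower values in the mutant library, within counting error. Ttn, which encodes the molecular spring titin, had 1.59 and 1.51 FPKM, a ratio of 0.954 (0.904 to 1.01). Neb, which encodes the thin filament ruler nebulin, had 4.39 and 4.18 FPKM, a ratio of 0.954 (0.896 to 1.02).

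The M-band genes Myom1 and Myom2, which cross-link thick filaments, had ratios of 1.09 (0.987 to 1.21) and 1.16 (0.973 to 1.39), from 6.26 and 2.26 FPKM in the control. Mybpc1, slow myosin-binding protein C, had 5.51 and 5.98 FPKM, and the Z-disc gene Ldb3 had 2.52 and 2.42 FPKM. Tcap, the titin cap, had 0.966 and 1.31 FPKM from about 17 and 29 reads, a ratio of 1.36 (0.723 to 2.64). The widest interval of this group was that of Tcap, the gene with the fewest reads.

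Among the 5 measured excitation-contraction members, Cacna1s was the only one whose interval left 1. Cacna1s, the voltage-sensing subunit of the calcium channel, had 1.98 FPKM in control and 2.49 FPKM in mutant tongues, for a ratio of 1.26 (1.06 to 1.49) from about 232 and 356 reads. Of the Cacna1s transcript's windows 16.6% also occur in transcripts of Gm37759. Its 2 rows, given below, lay on opposite sides of 1. Cacng1, the gamma subunit of the same channel, had 1.33 and 2.06 FPKM, a ratio of 1.55 (0.982 to 2.51) from about 30 and 57 reads. Its log2 ratio of 0.40 was the only one of a measured member outside the central 95% of all measured genes, which ran from −0.31 to 0.36. Ryr1, the release channel that Cacna1s controls, had 6.61 and 6.24 FPKM, a ratio of 0.945 (0.888 to 1.01). Thus Cacna1s was higher in the mutant library past counting error, while Cacng1 and Ryr1 lay on opposite sides of 1 within it. Ryr1 made up 90.5% and 91.4% of ryanodine receptor FPKM and the cardiac form Ryr2 7.39% and 6.25%, while Ryr3, the form of early muscle and other tissues, had 0.154 and 0.164 FPKM.

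Casq2, the calcium store protein of slow and cardiac muscle, had 16.8 and 17.2 FPKM, a ratio of 1.02 (0.931 to 1.13). It held 95.1% (93.3 to 96.4) and 95.7% (94.3 to 96.9) of calsequestrin FPKM, the rest being the fast form Casq1. Atp2a1, the calcium pump of fast muscle, had 20.3 and 21.4 FPKM, with a ratio of 1.05 (0.976 to 1.13), and overlaps another gene model with up to 6.03 FPKM. It held 25.4% (24.4 to 26.5) and 27.8% (26.8 to 28.8) of pump FPKM, beside the general form Atp2a2 with 73.3% and 70.5%, which is also made outside muscle and had a row whose status was not OK.

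Among assembly and energy genes, Smyd1, a methyltransferase needed for myosin assembly, had 16.5 and 16.7 FPKM, a ratio of 1.02 (0.935 to 1.10). Unc45b, the myosin chaperone, had 7.79 and 8.69 FPKM, a ratio of 1.12 (0.996 to 1.25). Ckm, the muscle creatine kinase of mature fibres, had 0.285 and 0.361 FPKM from about 8 and 12 reads. The assembly genes were thus well expressed while the mature enzyme had few reads in both libraries.

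Several members have more than 1 transcript row, and in the cases below at least 1 row differed more between the libraries than the sum did. Of the 39 members 10 had several rows. Tnnt2 summed to 27.3 and 26.5 FPKM, yet its row NM_001130174 was listed at 0.377 and 6.27 FPKM and its row NM_001130177 at 5.72 and 3.18 FPKM. Tnnt3 summed to 8.31 and 9.19 FPKM, and its leading row NM_001163666 had 4.72 and 2.20 FPKM, while NM_001163670 and NM_011620, both near 0 in the control, had 2.41 and 1.82 FPKM in the mutant library. Smyd1 had 8.21 and 11.1 FPKM in NM_009762 and 8.25 and 5.64 FPKM in NM_001160127. Myom1 had 2.98 and 3.84 FPKM in NM_001083934 and 3.27 and 3.00 FPKM in NM_010867. In Cacna1s, NM_014193 had 1.52 and 2.26 FPKM and NM_001081023 had 0.460 and 0.230 FPKM.

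The rows of such a gene share most of their exons, and the authors' tool divided the reads among them by estimation. A difference between rows is therefore given as listed, with no interval. The 2 rows of Myl1 span loci of different length. Its row NM_021285, with the longer locus, had 52.0 and 53.7 FPKM, and the shorter NM_001113387 had 24.9 and 20.8 FPKM, so the longer form made up 67.6% and 72.1% of the gene.

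**Figure D4:**
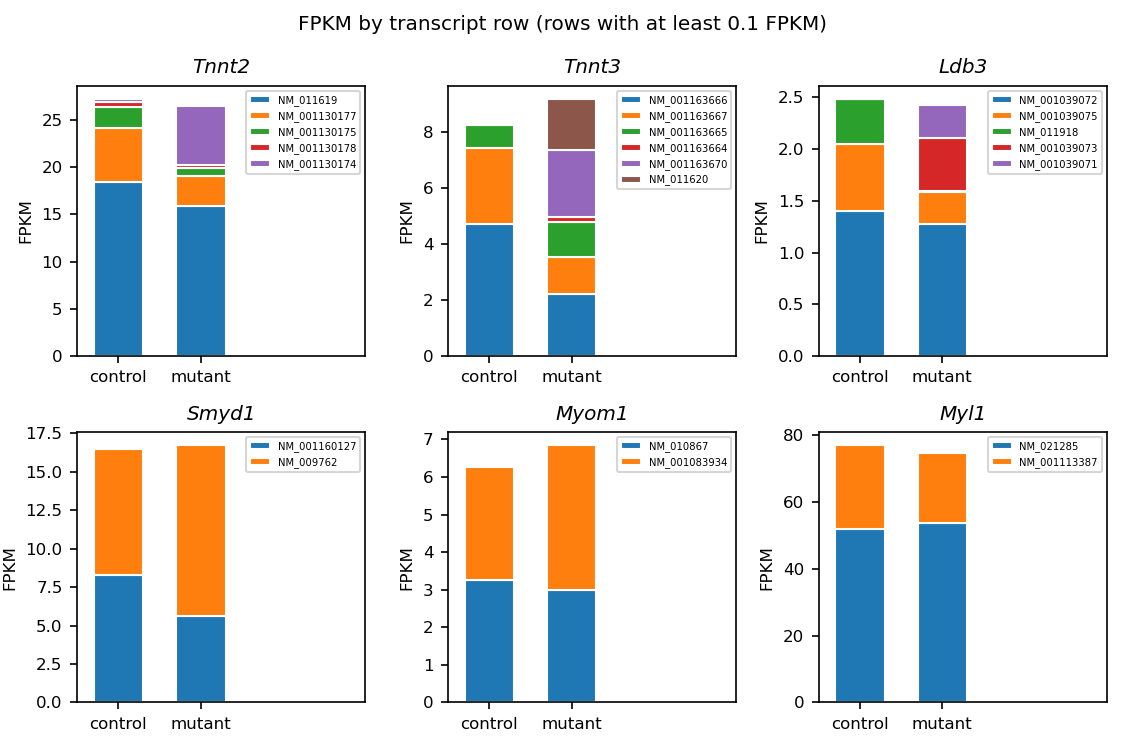
FPKM of each transcript row with at least 0.1 FPKM, stacked for the control and mutant library, in 6 members with several rows. The bars of a gene are of similar height while the colours within Tnnt2, Tnnt3, Ldb3 and Smyd1 differ between the libraries.

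Other genes of the same machinery were counted from lists set beside the members, and no difference between the lists and the members was tested. For reference, 51.2% of all measured genes were higher and 48.8% lower. The interval lay above 1 for 10.8% and below 1 for 10.3% of all measured genes. Of 48 other sarcomere symbols 28 were measured, with 17 (60.7%) higher and 11 lower and a median log2 ratio of 0.02. The interval lay above 1 for 2 (7.14%) and below 1 for 2 of them. Summed over this list the levels were 632 and 614 FPKM, a ratio of 0.971, on the other side of 1 from the members' sum. Lmod3, a nucleator of thin filaments, had 4.35 and 5.35 FPKM, with a ratio of 1.23 (1.02 to 1.49), and passed the minimum of 5 FPKM for naming through the mutant library alone, so it could only appear as higher. Flnc, the muscle filamin, had 28.1 and 23.6 FPKM, a ratio of 0.838 (0.805 to 0.871). The Z-disc genes Pdlim5 and Pdlim3 had ratios of 1.15 (1.02 to 1.29) and 1.12 (0.981 to 1.27). Of 25 other excitation-contraction genes 15 were measured, with 8 (53.3%) higher and 7 lower and a median of 0.02. The interval lay above 1 for 3 (20%) and below 1 for 1 of them. Summed levels of this list were 372 and 370 FPKM, a ratio of 0.997. Sln, which encodes the pump inhibitor sarcolipin, had 12.4 and 17.2 FPKM, a ratio of 1.39 (1.11 to 1.76). Cacna1c, the cardiac and smooth muscle channel, had 7.08 and 5.93 FPKM, with a ratio of 0.837 (0.770 to 0.910), and overlaps the gene model of Dcp1b. Stac3, a partner of the muscle channel, had a ratio of 1.15 (0.959 to 1.38), and Srl, which encodes sarcalumenin, had 1.11 (1.03 to 1.19). Of 10 genes of muscle metabolism 7 were measured, with 4 (57.1%) higher and 3 lower, and the interval lay above 1 for 1 (14.3%). Their list summed to 61.1 and 63.2 FPKM, a ratio of 1.03. Pygm, muscle glycogen phosphorylase, had 4.81 and 5.78 FPKM, with a ratio of 1.2 (1.02 to 1.41), and passed that minimum in the same way. Pgam2, Pfkm and Eno3 had ratios of 0.925, 1.06 and 1.03.

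Markers of myogenic cells lay on both sides of 1. Of 9 symbols 7 were measured, with 3 higher and 4 lower, a median log2 ratio of −0.03 and summed levels of 184 and 186 FPKM. Myod1, the determination factor, had 46.9 and 43.9 FPKM, with a ratio of 0.937 (0.876 to 1.0), and Myog, the differentiation factor, had 80.8 and 84.9 FPKM, a ratio of 1.05 (0.994 to 1.11). Tmem8c, the fusion protein of myoblasts, had 20.8 and 22.8 FPKM. In this list the interval lay above 1 for Mef2c alone, with 21.4 and 23.0 FPKM and a ratio of 1.07 (1.02 to 1.13). It lay below 1 for Pax3 alone, a gene of muscle precursors and neural crest. Pax3 had 2.91 and 1.84 FPKM, a ratio of 0.631 (0.510 to 0.780). Markers of other tissues also differed between the libraries. All 4 blood markers were lower in the mutant library, summing to 1309 and 1067 FPKM. All 4 neural markers were lower, summing to 33.1 and 21.6 FPKM, and 4 of 5 epithelial markers were lower, summing to 70.9 and 62.0 FPKM. The connective tissue markers, with 3 higher and 5 lower of 8, summed to 973 and 976 FPKM. That sum holds opposite differences, with 2 intervals above 1 and 4 below, among them Col1a2 with a ratio of 1.13 and Col1a1, Lum and Dcn with 0.901, 0.830 and 0.680. The part of the tissue make-up in the members' small shift was not tested.

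**Figure D5:**
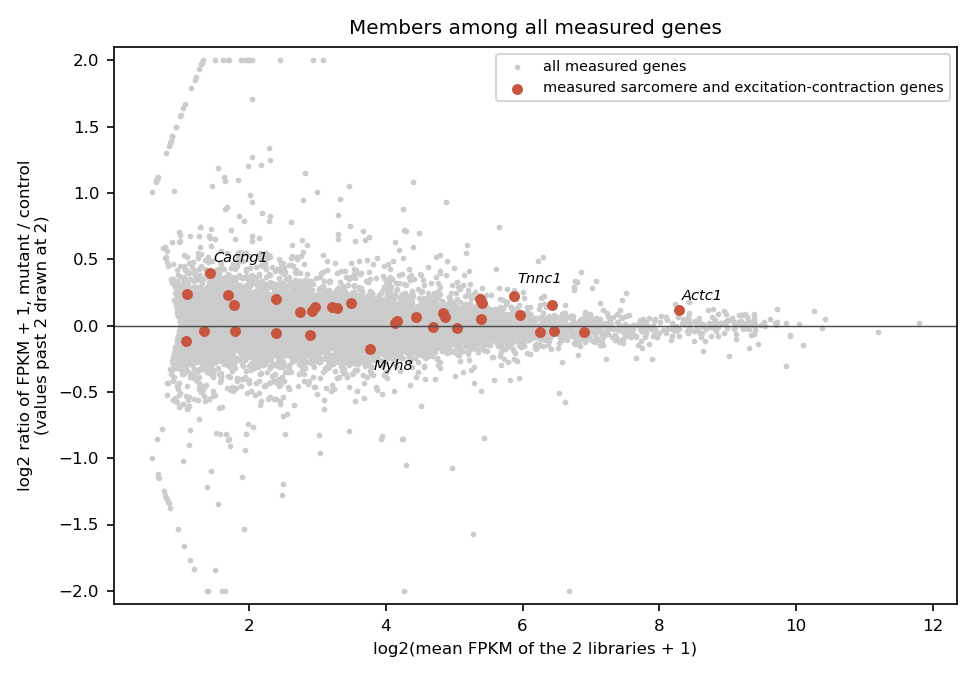
Log2 ratio of FPKM plus 1 against the log2 of the mean FPKM plus 1, for all 12383 measured genes (grey) and the 34 measured members (red). The members lie within the grey cloud around 0, with Myh8 below and Cacng1, Tnnc1 and Actc1 above the line.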

How the data were processed

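Tongues were pooled for RNA, per the series' design text, and cDNA came from a NuGEN Ovation kit, per the labels' protocols; such kits amplify the cDNA. Bowtie 0.12.7 and TopHat 1.4.1, with the build mm9, are listed in the submitters' processing notes. Per the file headers, the authors deposited FPKM and coverage, a signal whose values are not scaled for depth (0.894 per FPKM for control and 1.09 for mutant tongues), for 28107 RefSeq transcript rows in the layout of a Cufflinks table. Not given in the sources used here: Cufflinks version, read length, strand use. Reads were estimated as coverage times length over 47.4 bases, the median of 1010 low products of coverage and length in genes with 1 row of at least 1000 nt, taken as the worth of 1 read. Counting intervals were centred on the FPKM ratio, and the interval script was tested on simulated data. Intervals of isoform shares are exact binomial intervals. Their count is the FPKM share times the family's estimated reads, not a gene's own reads. Amplified reads are not independent molecules, so intervals and floors (3 reads) cover counting error only. At 1 kb the floor is 0.159 FPKM for control and 0.130 FPKM for mutant tongues. Log2 ratios used a pseudocount of 1 FPKM, and the deposited scale was kept. Positions are counted from 1 on mm9 unless GRCm38.p6 is named.

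The members, classes and lists were chosen with earlier results of these data known. All members are named, with at most 4 genes of each related list, those with the largest log2 ratios among genes with at least 5 FPKM, and isoforms with at least 5% of a family. Marker genes are named where a result is set beside their list, and Myh1, Myh2, Myh4, Myh13, Tnni3 and Casq1 were named after their values were seen. Windows of 47 bases were compared with GENCODE M21 transcripts on both strands. Alternatives were other pseudocounts, filters, scalings and transcript rows, and, chosen after seeing the data, genes with a row not OK kept and members with overlapping models left out. Python 3.11.15, pandas 2.3.3, NumPy 2.4.6 and SciPy 1.17.1 were used.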

Additional observations from a re-analysis of the deposited data

How the results depend on the processing

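No paired analysis was possible because each genotype had 1 library. Over 10 alternatives the members' median log2 ratio ran from 0.08 to 0.09. The number higher ran from 18 of 25 (threshold of 5 FPKM) to 26 of 38 (no threshold on the level), against 23 of 34 in the main setting. The number with an interval above 1 ran from 6 of 25 (threshold of 5 FPKM) to 10 of 35 (most abundant row), against 8 of 34. These ranges thus also reflect how many members each setting measured. Of the recomputed medians of lists and classes 135 moved by no more than the typical counting error of a single gene in the list. That allowance is wide beside most of the medians, so a change of sign could pass it. The cardiac class median, −0.0020 in the main setting, ran from −0.12 to 0.11. The thin filament median was 0.05 in the main setting and −0.03 with the most abundant row. The 1 median that moved further was that of the assembly and energy group with the most abundant row alone (0.27), which rests on Smyd1. With that setting 10 members lay above 1 and 3 below it (Myh8, Tnnt2 and Tnnt3), and the log2 ratios of Tnnt2, Tnnt3, Myom1 and Smyd1 became −0.20, −0.84, 0.28 and 0.39. Of the isoform shares 16 moved past their counting interval with that setting, those of the essential light chains, troponin T and the calcium pumps. With quantile normalization 4 members lay below 1 (Myh8, Neb, Ryr1 and Ttn) in place of 1. With the threshold of 5 FPKM the number of lower members was 7 of 25, the metabolism genes had 3 higher and 1 lower, and the other sarcomere genes 6 higher and 10 lower (median −0.03), so that their balance turned from 17 and 11. Without a threshold on the level the other sarcomere genes had 25 higher and 17 lower. The other excitation-contraction genes had 11 higher and 13 lower (median −0.0048) without it and 7 and 8 with the most abundant row, in place of 8 and 7, so their direction is not stable. The pseudocount, an absent level threshold and the row status cannot change a member's interval. Scaling to equal totals and centring on the median of all genes change all ratios by the same small factor. That factor was too small to move any of the 8 intervals above 1, whose lowest lower limit was 1.02 (Myh3). The most abundant row could change only Cacna1s among the 8, as it alone has several rows, and its interval stayed above 1. Quantile normalization could change all 8, and all 8 kept an interval above 1. The threshold of 5 FPKM left out Myh7 and Cacna1s, and leaving out overlapping models removed Myh7. Depth limits Myl2, Myl3 and Ckm, which rest on at most 12 reads.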
